A study of Mus musculus with 5 samples.

Results

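The 10 genes described here carry out antigen presentation by major histocompatibility complex (MHC) class I. They are the heavy chain genes H2-D1, H2-K1, H2-Q10 and H2-T23, the light chain gene B2m, the peptide-loading genes Tap1 and Tapbp, the immunoproteasome genes Psmb8 and Psmb9, and the regulator Nlrc5. They were chosen by name as 10 of the 21995 genes in the count matrix, and all 10 passed the filter on low counts in every fit reported below. The cells were sorted as DAPI-CD11b+Ly6G+, a gate for live neutrophils, from lung, liver, spleen, intestine, blood and bone marrow of C57BL/6 mice, a common inbred laboratory strain. All mice were untreated wild-type animals kept specific pathogen free at steady state, either young (10 weeks by the sample labels, 8 weeks by the design text) or 20 months old. The experiment was run 2 times, and each run was multiplexed into its own BD Rhapsody cartridge, a microwell device that tags every captured mRNA with a unique molecular identifier (UMI). This gave 2 pools, YO1 and YO2, each a mixture of all tissues and both ages. Cell barcodes carried the pool and neither tissue nor age, so the comparisons below are between kinds of cell, with each pool giving 1 value per kind.

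MHC class I molecules display peptides from inside the cell to CD8 T cells and to natural killer cell receptors. Peptides are cut by the proteasome, carried into the endoplasmic reticulum by the TAP transporter, trimmed, and loaded onto a heavy chain paired with beta-2 microglobulin. Interferons are known to replace the constitutive catalytic subunits of the proteasome with inducible ones, and to raise class I transcription through IRF1 and the coactivator NLRC5. H2-K1 and H2-D1 encode the classical chains of this strain, H2-T23 encodes the Qa-1 chain that presents leader peptides to NKG2A receptors, and H2-Q10 encodes a secreted chain best known from liver. Neutrophils mature in the marrow from dividing precursors through stages rich in secondary granule proteins to the segmented cells of blood and tissue.

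Of the 10 genes, 8 lie on chromosome 17, in or beside the mouse MHC, on the GRCm38 assembly with GENCODE M21 gene models. H2-K1 spans 33996017 to 34000347 on the minus strand and H2-D1 spans 35262730 to 35267499 on the plus strand. H2-Q10 spans 35470089 to 35474563 on the plus strand and H2-T23 spans 36029773 to 36032855 on the minus strand. Psmb9 (34181987 to 34187764, minus strand), Tap1 (34187553 to 34197225, plus strand) and Psmb8 (34197721 to 34201454, plus strand) are neighbours, and the RefSeq starts of Psmb9 and Tap1 face away from each other across 225 bases. Tapbp spans 33915899 to 33929292. B2m lies on chromosome 2 (122147686 to 122153083) and Nlrc5 on chromosome 8 (94434356 to 94527272). H2-D1, H2-K1, H2-Q10 and H2-T23 belong to a family of near-identical copies, and how reads that fit several copies were counted is not given in the sources used here, so the split of UMIs between them is uncertain.

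The sequences before the RefSeq starts of the heavy chain genes are shown because the heavy chains differed from each other in the results below. RefSeq promoter entries (GRCm38.p6) were found for 9 of the 10 members, all except Nlrc5. Upstream here means before the RefSeq start, and some GENCODE M21 models begin earlier. All 250 bases before the H2-D1 start are exon of H2-D1 in those models, and 154 bases before the H2-T23 start are exon of H2-T23. The H2-D1 and H2-T23 windows below lie within these exons. The first set covers 30 bases around the matches described next, or, for H2-Q10, the aligned stretch, printed 5′ to 3′ on the strand of each gene. Capitals mark matches to the kappaB motif, which is bound by NF-kappaB, and to the interferon response letters GAANNGAAA or the form with an added A after GAA, searched on both strands.
H2-K1 (chr17:34000429-34000458, minus strand): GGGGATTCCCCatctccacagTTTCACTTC
H2-D1 (chr17:35262923-35262952, plus strand): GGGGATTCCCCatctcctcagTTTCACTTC
H2-Q10 (chr17:35469913-35469942, plus strand): gaggactccccatctccccagTTTCACTTC
H2-T23 (chr17:36032806-36032835, minus strand): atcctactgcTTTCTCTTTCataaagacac
B2m (chr2:122147545-122147574, plus strand): catGAAACTGAAAatgGGAAAGTCCCtttg

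Counted from 1 at the 5′ end, the H2-D1 window differed from that of H2-K1 by A18T alone, 1 of 30 bases. The H2-Q10 window differed from that of H2-K1 by G2A, T6C and A18C, 3 of 30 bases, and held no kappaB match. A kappaB match was found in the 250 bases upstream of 3 of the 9 members with an entry (B2m, H2-D1 and H2-K1) and in 3.90% of 32851 promoters of the same length. GAANNGAAA was found in 3 of 9 (H2-D1, H2-K1 and H2-Q10) and in 6.31% of promoters, and the form with the added A in 2 of 9 (B2m and H2-T23) and in 2.98%. TGACGC was found in 2 of 9 (H2-D1 and H2-K1) and in 6.12% of promoters, and CCAAT in 7 of 9 and in 33.8%. Each match is a description of these letters and not of binding. The full 250 bases before the start of H2-K1 and H2-Q10 follow, since these 2 genes differed in opposite directions between activated and other mature neutrophils in a fit given below. Capitals have the same meaning. The H2-K1 run holds TGACGC, and CCAAT on the opposite strand, downstream of the capitals. The H2-Q10 run held no match to either or to the kappaB motif.
H2-K1 (chr17:34000348-34000597, minus strand): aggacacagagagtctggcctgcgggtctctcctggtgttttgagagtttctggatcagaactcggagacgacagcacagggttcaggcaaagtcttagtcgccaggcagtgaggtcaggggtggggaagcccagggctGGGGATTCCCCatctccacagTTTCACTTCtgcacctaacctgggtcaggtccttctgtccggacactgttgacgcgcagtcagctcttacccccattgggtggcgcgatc
H2-Q10 (chr17:35469839-35470088, plus strand): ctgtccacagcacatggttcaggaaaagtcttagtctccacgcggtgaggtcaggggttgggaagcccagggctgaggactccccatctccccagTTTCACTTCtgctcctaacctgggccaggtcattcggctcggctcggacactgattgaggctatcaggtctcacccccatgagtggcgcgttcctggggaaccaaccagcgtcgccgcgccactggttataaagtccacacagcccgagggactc

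YO1 held 20352 barcodes with 39713846 UMIs (median 1189 per barcode) and YO2 held 17720 with 41839786 (median 1444). Filters on UMIs, genes and mitochondrial share left 19505 cells in YO1 and 17215 in YO2. The barcodes of the 2 pools had 406 cell index numbers in common. Neutrophils were split by marker UMIs. Cycling cells had at least 2 UMIs of Mki67 and Top2a (648 cells in YO1, 73 in YO2), and Ltf-high immature cells had at least 5 UMIs of the granule gene Ltf (2107 and 439). Late immature cells had at least 10 UMIs of Ngp with fewer than 5 of Ltf (421 and 32). Mature cells had at least 2% of UMIs from S100a8 and S100a9 with fewer than 3 of Ngp. Among these, interferon neutrophils had at least 3 UMIs of Ifit1, Ifit3 and Rsad2 (542 and 869) and activated neutrophils at least 3 of Il1a, Icam1 and Nr4a3 (13 and 107). The remaining mature cells, called other mature, were the reference (9194 and 8662). Cells that met none of these rules numbered 2347 and 3404, of which 1789 and 3343 fell below the S100a8 and S100a9 limit with few Ngp UMIs. Cells of other lineages were set apart first by marker lists. The cycling class held 3 immature neutrophil markers and the early granule markers Elane, Mpo and Prtn3 among its 10 leading genes. The 2 cycling markers among them, Mki67 and Top2a, were those that defined the class. It thus describes dividing immature neutrophils, with early granule transcripts mainly in YO1, as given below. Summed markers of neutrophils reached 43794 to 195917 CPM, the usual per-library scaling of UMIs, in the 12 sums of these 6 classes, and those of B cells, T and NK cells and dendritic cells stayed at or under 164 CPM. Those of classical monocytes and macrophages were higher in other mature cells and are given below. These sums are no independent check of identity. S100a8 and S100a9 are on the neutrophil list and defined the mature cells, and the lineage lists had been used to set cells apart. Each class was summed per pool and levels are given as CPM of the summed UMIs, with no correction for length, so levels are compared between classes and not between genes. Variation of class differences between the 2 pools is the only replicate error, since nothing in the labels ties cells to animals, and counting intervals cover counting error only.

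**Figure D1:**
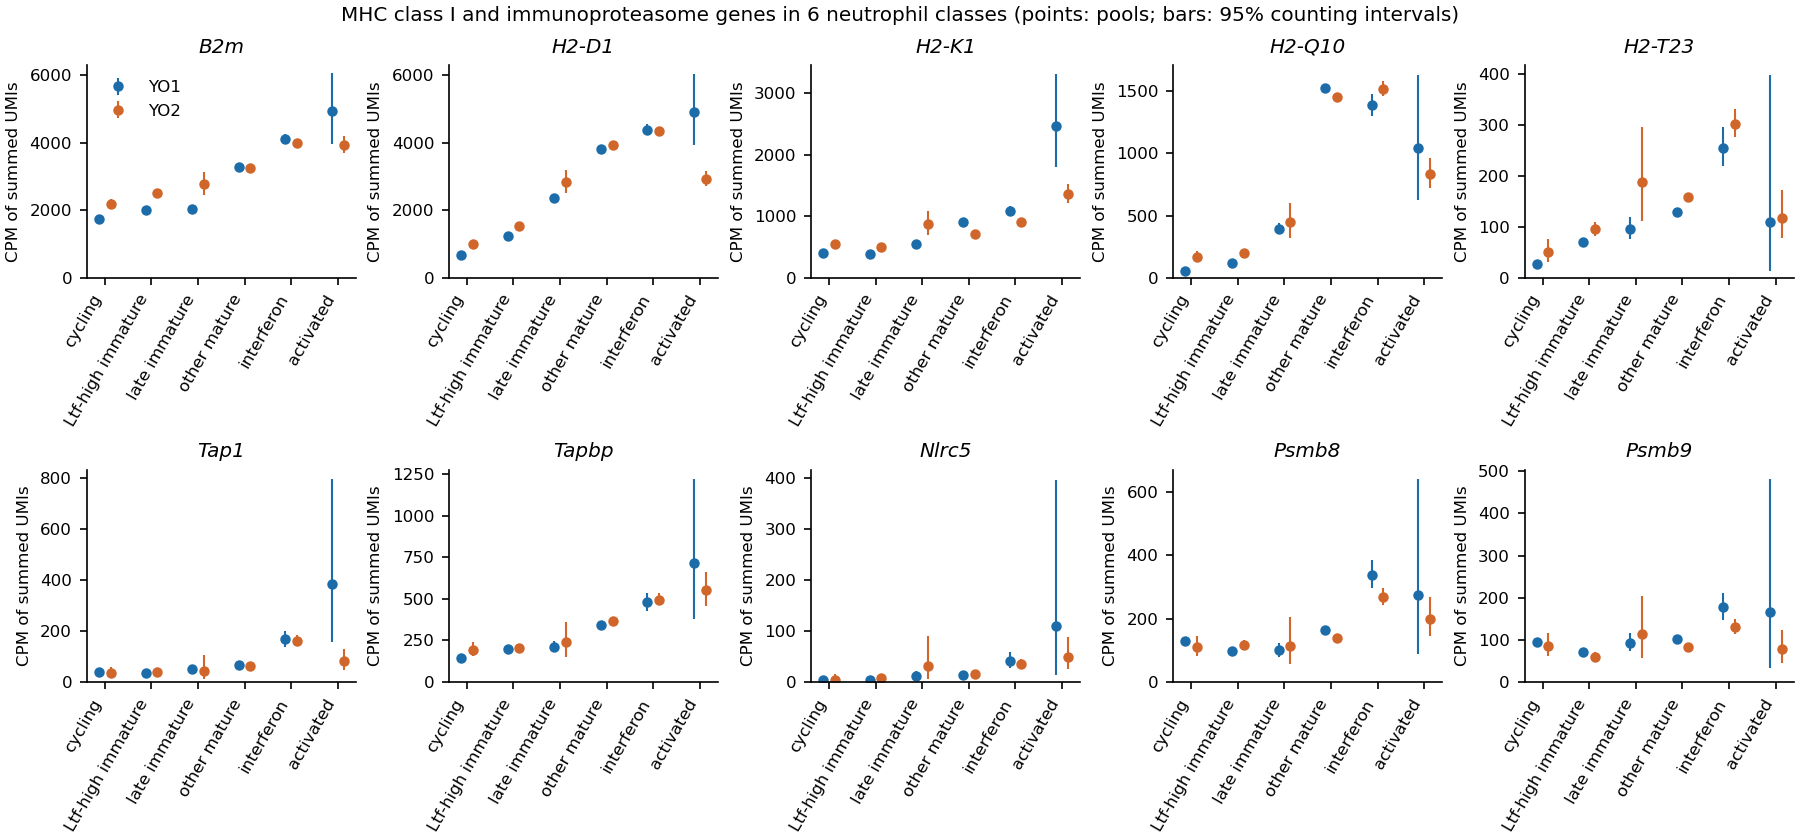
CPM of summed UMIs (vertical axes) for each of the 10 genes in 6 neutrophil classes (horizontal axes), with 1 point per pool and bars for 95% exact Poisson counting intervals. H2-Q10 goes from 52.9 and 169 CPM in cycling cells to 1529 and 1452 in other mature cells, and the widest bars belong to the 13 activated cells of YO1.

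Of the 10 members, 9 were lower in cycling, 8 in Ltf-high and 1 in late immature than in other mature neutrophils, and H2-D1 and H2-Q10 had higher CPM at each later stage in both pools. H2-Q10, the secreted chain, had the widest range. It stood at 52.9 CPM in YO1 and 169 in YO2 in cycling cells, 115 and 198 in Ltf-high cells, 392 and 446 in late immature cells, and 1529 and 1452 in other mature cells. Neighbouring stages did not overlap, except that the YO2 cycling value lay above the YO1 Ltf-high value. H2-D1 went from 679 and 1007 CPM in cycling cells through 1222 and 1543 and then 2345 and 2829 to 3823 and 3915 in other mature cells. No stage of H2-D1 overlapped its neighbour. Nlrc5, the coactivator of class I genes, was sparse throughout, at 3.10 and 4.49 CPM in cycling cells (13 and 2 UMIs), 4.59 and 7.39 in Ltf-high cells, 11.7 and 31.1 in late immature cells and 14.2 and 16.1 in other mature cells. Its late immature values rest on 10 and 3 UMIs and span those of other mature cells.

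B2m followed this order over a smaller range, and H2-K1 did not follow it at every step. H2-K1 measured 400 and 546 CPM in cycling cells, 387 and 499 in Ltf-high cells, 554 and 870 in late immature cells and 899 and 703 in other mature cells. Its cycling and Ltf-high values overlapped, and so did its late immature and other mature values. B2m, the shared light chain, measured 1741 and 2195 CPM in cycling cells, 2007 and 2500 in Ltf-high cells, 2039 and 2777 in late immature cells and 3295 and 3263 in other mature cells. The 3 immature stages of B2m overlapped and all lay below the other mature values. H2-T23 measured 27.6 and 49.4 CPM in cycling cells, 68.9 and 95 in Ltf-high cells, 95.8 and 187 in late immature cells and 128 and 158 in other mature cells.

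In cycling neutrophils, 9 of the 10 members were lower than in other mature cells (edgeR quasi-likelihood test, adjusted p under 0.05), where 32.0% of the 7918 genes tested were lower and 41.7% were higher. H2-Q10 was lower by a log2 difference of -4.27 ± 0.34 (SE, adjusted p = 5.47e-13) and H2-D1 by -2.47 ± 0.26 (4.89e-10). Nlrc5 differed by -2.41 ± 0.38 and H2-T23 by -2.31 ± 0.22. Tap1 measured 37.2 and 36.0 CPM in cycling cells and 34.9 and 39.0 in Ltf-high cells, and Tapbp 144 and 193 and then 196 and 204, all below the other mature values of 64.8 and 64.0 for Tap1 and 345 and 367 for Tapbp. The loading genes Tapbp, which bridges TAP to empty heavy chains, and Tap1, a subunit of the peptide transporter, differed by -1.37 ± 0.22 and -1.09 ± 0.22. H2-K1 and B2m differed by -1.04 ± 0.26 and -1.01 ± 0.24. Psmb8 differed by -0.59 ± 0.20 (adjusted p = 0.00865). This sign turned to 0.05 ± 0.23 with DESeq2 and to 0.08 ± 0.22 with classes assigned from thinned cells. Psmb9 did not pass, at -0.33 ± 0.18 (adjusted p = 0.106). The median log2 difference of the members was -1.23, and that of all genes tested was 0.18. DESeq2 called 6 members lower and lost H2-K1 (-0.40, adjusted p = 0.262), Tap1 (-0.46, adjusted p = 0.294) and Psmb8. Of all calls, 56.6% were higher in cycling cells, and 76.1% with DESeq2. Cycling cells were deeper, with median UMIs of 5995 and 6356 per cell against 1005 and 1323. In YO1 the cycling class also held early granule transcripts (Mpo, Elane and others) at 3912 CPM, against 18.0 in YO2, and their part in the result was not tested. With classes assigned from thinned cells 8 members remained lower, and Psmb8 and Psmb9 did not pass. That fit summed the full counts of the cells kept, so it did not bring the classes to equal depth.

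In Ltf-high immature neutrophils, 8 of the 10 members were lower than in other mature cells, where 26.3% of genes were lower and 31.3% were higher. H2-Q10 differed by -3.23 ± 0.31 (edgeR adjusted p = 9.67e-11), H2-D1 by -1.40 ± 0.25 (1.67e-05) and Nlrc5 by -1.38 ± 0.28 (0.000104). H2-K1, Tap1, Tapbp and H2-T23 differed by -0.77, -0.74, -0.74 and -0.73, and Psmb9 by -0.43 ± 0.17. B2m (-0.46 ± 0.24, adjusted p = 0.0972) and Psmb8 (-0.40 ± 0.19, 0.0631) did not pass. The members' median was -0.74 against 0.08 for all genes. Of all calls, 54.3% were higher, and 69.4% with DESeq2, which called 5 members lower (H2-D1, H2-Q10, H2-T23, Nlrc5 and Tapbp). Without the Ltf-high sum of YO1, or without the other mature sum of YO1, 4 members remained past the threshold.

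In late immature neutrophils, H2-Q10 was the only member that passed, at -1.66 ± 0.31 (edgeR adjusted p = 0.000112), where 8.11% of genes were lower and 9.98% were higher. The other 9 members ranged from -0.51 (Tapbp) to 0.16 (Psmb9). YO2 had 32 cells in this class, which limits the precision. Of the pathway genes, Pomp was higher (0.77 ± 0.24) and Canx (-1.36 ± 0.36), Irf1 (-0.83 ± 0.30) and Rela (-0.82 ± 0.28) were lower. Of all calls 55.2% were higher, 71.9% with DESeq2 and 38.9% with scaling by total UMIs. With thinning H2-D1 and Tapbp were lower as well.

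The immunoproteasome genes were measured in the same stages. Psmb8, the inducible chymotrypsin-like subunit, measured 128 and 110 CPM in cycling cells, 98.4 and 117 in Ltf-high cells, 99.3 and 114 in late immature cells and 164 and 138 in other mature cells. Psmb9, another inducible subunit, measured 94.3 and 85.4 CPM in cycling cells, 70.4 and 59.1 in Ltf-high cells, 92.3 and 114 in late immature cells and 103 and 82.0 in other mature cells. Its cycling values overlapped its other mature values. Of the constitutive subunits that inducible ones replace, all 3 of Psmb5, Psmb6 and Psmb7 were higher in cycling cells (log2 differences of 1.04 ± 0.20, 2.14 ± 0.23 and 1.23 ± 0.18) and in Ltf-high cells (0.60 ± 0.19, 1.5 ± 0.22 and 0.71 ± 0.17), where 41.7% and 31.3% of all genes were higher. Psmb9 was counted at 1.57 and 1.15 UMIs per UMI of Psmb6 in cycling cells and at 8.20 and 6.82 in other mature cells. Psmb8 per Psmb5 went from 1.71 and 1.58 to 5.40 and 4.66 between the same classes. Psmb10 per Psmb7, the third pair, went from 0.25 and 0.20 to 0.53 and 0.54. In each of the 3 pairs the intervals of the cycling and other mature ratios did not overlap within a pool.

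Among the 6 other genes of peptide loading, 4 were higher in cycling cells (Erap1 1.82, Pdia3 1.61, Canx 1.18 and Calr 0.54, a trimming peptidase and chaperones of the endoplasmic reticulum), where 41.7% of all genes were higher, and Tap2 was lower (-0.92). In Ltf-high cells 3 of the 6 were higher (Pdia3 1.27, Erap1 1.19 and Canx 0.74), where 31.3% of all genes were higher. Of the 11 further heavy chain or class I-like genes listed, 5 passed the low-count filter, and H2-T24 and H2-T22 were lower in cycling cells (-2.77 and -1.64) and in Ltf-high cells (-1.06 and -1.06). H2-Q4 and H2-Q7 were lower in Ltf-high cells (-1.11 and -0.88). Of the listed transcription factors of the class I genes, Irf1, Irf2 and Rela were lower in cycling cells (-2.56, -1.83 and -1.04) and Rfxank was higher (1.22). Irf1, Irf2 and Rela were lower in Ltf-high cells (-1.82, -0.90 and -0.69).

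**Figure D2:**
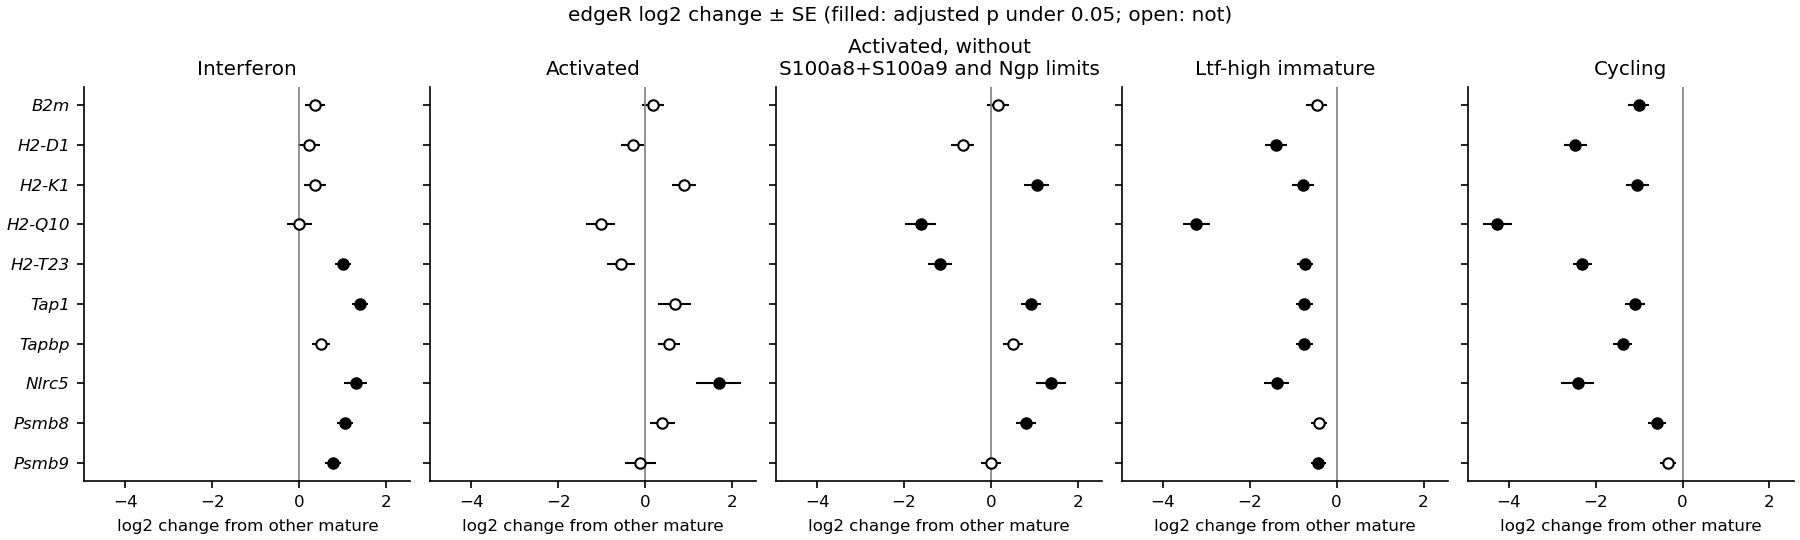
edgeR log2 change from other mature neutrophils (horizontal axis) with SE bars for each of the 10 genes (vertical axis) in 5 comparisons. Filled points passed an adjusted p of 0.05; H2-Q10 lies farthest left in cycling cells at -4.27, and Tap1 farthest right in interferon neutrophils at 1.40.

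Interferon neutrophils had more transcript of the transporter subunit Tap1, the immunoproteasome subunits Psmb8 and Psmb9, the regulator Nlrc5 and the nonclassical chain H2-T23. The classical chains and B2m did not pass the test. Tap1 measured 167 CPM in YO1 and 160 in YO2, against 64.8 and 64.0 in other mature cells, which was 2.58 and 2.5 times as much. Psmb8 measured 339 and 269 CPM against 164 and 138, and Psmb9 measured 177 and 131 against 103 and 82.0. H2-T23 measured 255 and 302 CPM against 128 and 158. Nlrc5 measured 40.3 and 34.2 CPM (28 and 51 UMIs) against 14.2 and 16.1. For these 5 genes both interferon values lay above both other mature values. B2m (4101 and 4007 CPM), H2-D1 (4384 and 4328), H2-K1 (1088 and 905) and Tapbp (478 and 495) were also above both reference values, by ratios of 1.11 to 1.39 within a pool. H2-Q10 measured 1389 and 1521 CPM and overlapped the reference. Here and for the other classes, how many of all genes separate by both pool values was not counted. Such positions describe the values and are no test.

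By the edgeR test, 5 of the 10 members were higher in interferon neutrophils, where 1.58% of the 7918 genes tested were higher. Tap1 differed by a log2 value of 1.40 ± 0.19 (adjusted p = 3.16e-06) and Nlrc5 by 1.30 ± 0.26 (0.00166). Psmb8 differed by 1.06 ± 0.19 (adjusted p = 0.000276), H2-T23 by 1.01 ± 0.18 (0.000221) and Psmb9 by 0.78 ± 0.18 (0.00689). Tapbp (0.51 ± 0.20, adjusted p = 0.623), H2-K1 (0.37 ± 0.26), B2m (0.36 ± 0.24) and H2-D1 (0.23 ± 0.25) did not pass, and H2-Q10 differed by 0.00 ± 0.28. The members' median was 0.64 against -0.02 for all genes. No gene was called lower by edgeR, with 128 genes lower at an unadjusted p under 0.05 and 0 lower by DESeq2. DESeq2 also called Tapbp (0.48 ± 0.14, adjusted p = 0.0449), and Psmb9 did not pass with thinning. Without the pool as a block, 3 members passed (Nlrc5, Psmb8 and Tap1). Without the interferon sum of YO1, or without the other mature sum of YO2, Tap1 alone passed. The cells of this class were chosen by Ifit1, Ifit3 and Rsad2, which are no members. Their depth was close to that of the reference, with median UMIs of 1106 and 1460 against 1005 and 1323, and the summed markers of classical monocytes (281 and 292 CPM against 318 and 292) and macrophages (219 and 215 against 253 and 247) were no higher. Cells that met those lists had been set apart first, so these sums were limited in advance in both classes.

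Of the other pathway genes, H2-T24 (1.49 ± 0.20) and H2-T22 (1.14 ± 0.22), nonclassical chains of the same T region as H2-T23, were higher in interferon neutrophils. None of the 6 loading genes, the 4 other inducible proteasome genes or the 3 constitutive subunits passed this edgeR test. Psmb10 measured 37.5 and 24.1 CPM against 24.7 and 20.1, and it passed without the S100a8, S100a9 and Ngp limits (0.90 ± 0.21, adjusted p = 0.0194). The ratio of Tap1 to Tap2 UMIs was 1.14 and 1.33 in interferon neutrophils (95% intervals 0.86 to 1.5 and 1.09 to 1.62) and 0.63 and 0.70 in other mature cells (0.57 to 0.69 and 0.64 to 0.77). Psmb9 per Psmb6 was 10.3 and 13.9 in interferon cells, and its intervals overlapped those of other mature cells in both pools.

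The same genes were graded within mature neutrophils by the number of Ifit1, Ifit3 and Rsad2 UMIs in the cell. Tap1 measured 61.2, 94.9, 128 and 234 CPM in YO1 cells with 0, 1 or 2, 3 to 5, and 6 or more such UMIs, and 58.3, 92.8, 124 and 204 in YO2. Psmb8 measured 159, 200, 260 and 451 CPM in YO1 and 129, 185, 247 and 298 in YO2. H2-T23 measured 121, 174, 239 and 281 CPM in YO1 and 149, 196, 254 and 359 in YO2. These 3 genes were higher in each further bin in both pools. H2-Q10 stayed between 1321 and 1538 CPM in every bin of both pools. Just outside the limit of 3 UMIs, cells with 2 (321 and 404 cells) had 109 and 118 CPM of Tap1 and 179 and 225 of H2-T23. Just inside it, cells with 3 (178 and 246 cells) had 105 and 141 CPM of Tap1 and 219 and 260 of H2-T23. The class is thus a range cut from a graded count, and many cells lie near the limit.

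**Figure D3:**
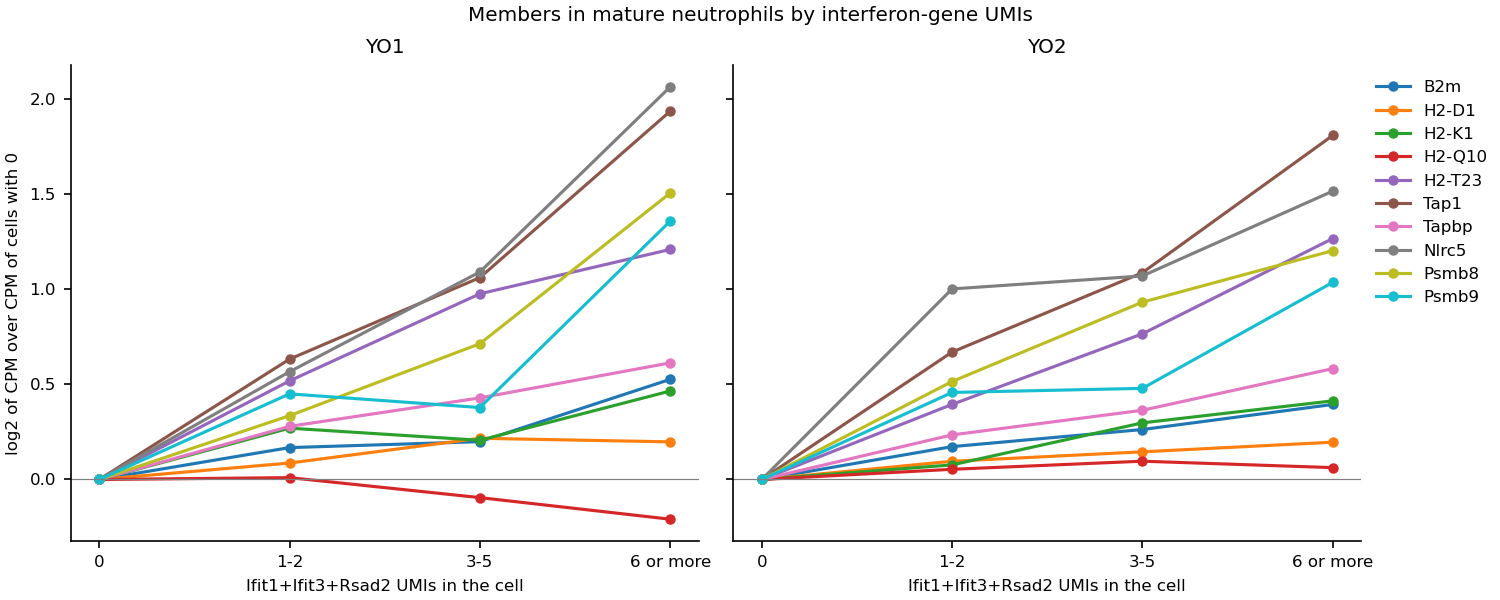
Log2 of the CPM of each member relative to cells without Ifit1, Ifit3 and Rsad2 UMIs (vertical axis) in mature neutrophils binned by those UMIs (horizontal axis), 1 panel per pool and 1 line per gene. Tap1 and Nlrc5 climb most, and H2-Q10 stays near 0.

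Activated neutrophils, marked by the cytokine Il1a, the adhesion molecule Icam1 and the nuclear receptor Nr4a3, differed from other mature cells by a called amount in Nlrc5 alone, and H2-K1 and H2-Q10 came near the threshold on opposite sides. H2-K1 measured 2474 CPM in YO1 and 1358 in YO2 against 899 and 703, and both activated values lay above both reference values. H2-Q10 measured 1045 and 837 CPM against 1529 and 1452, and both lay below. H2-D1 measured 4893 and 2923 CPM against 3823 and 3915, and the 2 pools fell on opposite sides of the reference. Nlrc5 measured 110 and 49.8 CPM (2 and 11 UMIs) against 14.2 and 16.1. Tap1 measured 385 and 81.5 CPM (7 and 18 UMIs), both above the reference. The YO1 values rest on 13 cells and 18189 UMIs.

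In this fit Nlrc5 passed, at 1.70 ± 0.52 (edgeR adjusted p = 0.0487), where 3.55% of genes were higher and 2.21% were lower. H2-K1 (0.90 ± 0.28, adjusted p = 0.0537) and H2-Q10 (-1.02 ± 0.33, 0.0662) did not pass. The members' median was 0.29 against -0.15 for all genes. Of the other members, B2m, H2-D1, H2-T23, Tap1, Tapbp, Psmb8 and Psmb9 ranged from -0.56 (H2-T23) to 0.69 (Tap1). In simulated sums with an assumed spread, this comparison recovered 3 of 198 genes changed by a log2 value of 1. The interferon comparison recovered 112 of 197. Members without a call here are therefore not shown to be unchanged, and the numbers of calls in the 2 comparisons are not alike. Of all calls 61.6% were higher, 73.5% with DESeq2 and 73.7% with scaling by total UMIs, but 47.1% with no filter and 36.9% with thinning. Without the activated sum of either pool no member was higher, and without the pool as a block no gene of the 10 passed. Of the pathway genes, Psmb10 (1.97 ± 0.42), Psme2 (1.62 ± 0.43), Nfkb1 (1.25 ± 0.36) and Canx (1.11 ± 0.33) were higher.

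In YO2, most cells with 3 or more UMIs of Il1a, Icam1 and Nr4a3 fell outside the S100a8 and S100a9 or the Ngp limit (107 met both). In YO1 most met both limits (13 cells). The comparison was therefore also made without the S100a8 and S100a9 limit and without the Ngp limit. This gave 21 activated cells in YO1 and 588 in YO2, and in this fit 4 of the 10 members were higher and 2 were lower, where 16.1% of 8343 genes were higher and 15.5% were lower. Nlrc5 differed by 1.39 ± 0.34 (edgeR adjusted p = 0.00281), H2-K1 by 1.06 ± 0.29 (0.0062), Tap1 by 0.92 ± 0.24 (0.00455) and Psmb8 by 0.80 ± 0.24 (0.0108). H2-Q10 differed by -1.62 ± 0.36 (adjusted p = 0.00125) and H2-T23 by -1.17 ± 0.27 (0.00157). H2-K1 measured 2916 and 1703 CPM, H2-Q10 measured 837.5 and 581, and H2-T23 measured 124 and 84.9. Both H2-T23 values lay below both reference values of 128 and 158. The YO1 value rests on 4 UMIs, and its 95% counting interval (33.8 to 318 CPM) spans both reference values. H2-D1 measured 4125 and 2559 CPM and did not pass, at -0.65 ± 0.27. Without the YO2 activated sum H2-K1 alone passed, so the other 5 calls rest on YO2. Without the YO1 activated sum 3 were higher (Nlrc5, Psmb8 and Tap1) and 3 were lower (H2-D1, H2-Q10 and H2-T23), so the H2-K1 call rests on YO1.

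The cells without the limits kept neutrophil markers at lower levels. Csf3r, the G-CSF receptor, measured 1675 and 1294 CPM in them against 2360 and 2521 in other mature cells, and Cxcr2 measured 1365 and 1421 against 3107 and 3931. Ly6g, the sort marker, measured 62.0 and 11.7 CPM against 148 and 98.7. Summed markers of classical monocytes (589 and 230 CPM against 318 and 292), macrophages (341 and 255 against 253 and 247), nonclassical monocytes (62.0 and 147 against 33.9 and 35.1), dendritic cells (217 and 26.4 against 3.87 and 3.98) and eosinophils (31.0 and 339 against 43.5 and 43.6) differed by list and pool, and their part in the result was not tested.

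Without the limits, all 4 other inducible proteasome genes were higher in activated cells (Psmb10 2.44 ± 0.23, Psme2 1.52 ± 0.27, Psme1 1.15 ± 0.24 and Pomp 0.71 ± 0.24), and so was 1 of the 3 constitutive subunits (Psmb6 1.15 ± 0.33). Of the 6 loading genes 5 were higher (Erap1 2.49, Tapbpl 1.63, Canx 1.56, Calr 0.79 and Tap2 0.68). In this fit 16.1% of all genes tested were higher and 15.5% were lower. Among further chains H2-Q7 (2.37 ± 0.38) and H2-Q6 (2.03 ± 0.65) were higher, while H2-T24 (-2.18 ± 0.41) and H2-T22 (-1.14 ± 0.40) were lower. H2-Q6, H2-T24, H2-T22 and Erap1 had 0 UMIs in the YO1 activated sum (95% interval up to 114 CPM), so YO1 says little about them. H2-Q7 measured 124 and 216 CPM (4 and 221 UMIs) against 37.0 and 22.8 in other mature cells. Nfkb1 (0.97) was higher as well.

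Interferon and activated neutrophils were compared directly in the same fits. H2-T23 was higher in interferon neutrophils by a log2 value of 1.57 ± 0.32 (edgeR adjusted p = 0.00131), where 3.4% of genes were higher and 3.49% were lower. It was the single member to pass. H2-T22 (2.22 ± 0.64) and H2-T24 (2.51 ± 0.57) were also higher in interferon neutrophils, and Psmb10 (-1.50 ± 0.43) and Canx (-1.23 ± 0.36) were higher in activated ones. Of all calls 49.4% were higher, 36.6% with DESeq2 and 31.8% with scaling by total UMIs, but 56.6% with no filter and 70.7% with thinning. Without the limits 4 members were higher in interferon neutrophils (H2-T23 2.18 ± 0.27, H2-Q10 1.57 ± 0.36, Psmb9 0.88 ± 0.24 and H2-D1 0.84 ± 0.27), where 14.3% of genes were higher and 12.4% were lower. Without the activated sum of YO2, no member passed in the fit with the limits. The interferon and activated comparisons share the other mature sums as controls. Tap1, Psmb8, Nlrc5 and H2-T23 differed from those sums by 1.37, 1.11, 1.46 and 1.01 in interferon cells and by 0.92, 0.80, 1.39 and -1.17 in activated cells without the limits.

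The proportion of H2-D1 to H2-K1 UMIs also differed between classes, and it does not depend on scaling. It is used here to compare classes and not the 2 genes, since reads shared between them may have been split. Other mature cells had 4.25 H2-D1 UMIs per H2-K1 UMI in YO1 (95% exact interval 4.15 to 4.35) and 5.57 in YO2 (5.44 to 5.69). Interferon neutrophils had 4.03 and 4.78, late immature cells 4.24 and 3.25, and Ltf-high cells 3.16 and 3.09. Cycling cells had 1.70 and 1.84, and activated cells 1.98 and 2.15 (intervals 1.37 to 2.90 and 1.87 to 2.48). Cycling and activated neutrophils thus lay below all 4 other neutrophil classes in both pools. The 10 other lineages with enough cells ranged from 0.67 (T and NK cell-like) to 1.74 (basophil and mast cell-like) in YO1 and from 0.90 (plasma cell-like) to 3.20 (eosinophil-like) in YO2, and each lay below the other mature value of its own pool.

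**Figure D4:**
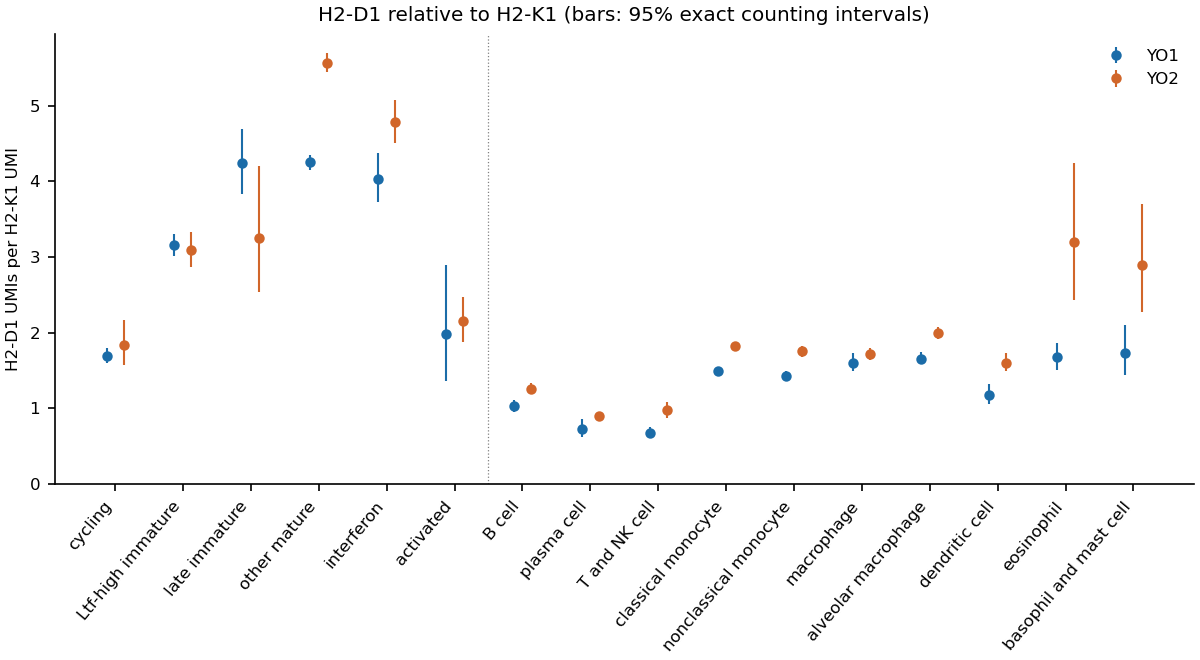
H2-D1 UMIs per H2-K1 UMI (vertical axis) in 6 neutrophil classes and 10 other lineages (horizontal axis), 1 point per pool with 95% exact counting intervals. Other mature neutrophils are highest in YO2 at 5.57, and T and NK cell-like cells are lowest in YO1 at 0.67.

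Cells of other lineages passed the Ly6G sort in both pools, and 10 lineages had at least 30 cells in each. Nonclassical monocyte-like cells had the highest B2m of these lineages, at 7210 and 6442 CPM against 3295 and 3263 in other mature neutrophils. Their H2-D1 was near the level of other mature neutrophils, at 3828 and 3964. T and NK cell-like cells had the highest H2-K1, at 3318 and 2700 CPM, and the highest Nlrc5, at 71.4 and 70.5. Dendritic cell-like cells had the highest Psmb8 and Psmb9, at 593 and 531 CPM and at 335 and 225. At least 2 lineage lists were met by 44 of 74 and 97 of 143 dendritic cell-like cells. The same held for 276 of 513 and 282 of 459 nonclassical monocyte-like cells, and for 6 of 119 and 6 of 72 T and NK cell-like cells. Alveolar macrophage-like cells had the lowest H2-Q10, at 45.8 and 56.3 CPM. In no lineage did H2-Q10 reach the level of other mature neutrophils. Its highest values were 334 and 722 in eosinophil-like cells, whose 10 leading genes held 2 eosinophil markers and 2 early granule markers (Mpo and Elane). B cell-like cells had 309 and 312 CPM and nonclassical monocyte-like cells 310 and 347. The 40 eosinophil-like cells of YO2 also held the neutrophil markers S100a8 at 20011 CPM and Csf3r at 1484, and their part in the H2-Q10 value was not tested.

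Over the 10 lineages together, 7 members were lower than in other mature neutrophils by the edgeR test with TMM scaling, where 35.0% of the 10529 genes tested were lower and 30.4% were higher. This count depends on the scaling. The median of all genes moved from 0.13 with TMM to 0.76 with total UMIs and 2.08 with DESeq2, and the share of calls that were higher moved from 46.5% to 67.9% and 81.1%. H2-Q10 (-3.72 ± 0.17) and H2-D1 (-1.62 ± 0.17) were lower under all 3 scalings. B2m, H2-T23, Tap1, Tapbp and Psmb9 were lower with TMM, at -0.64, -0.87, -0.41, -0.69 and -0.46, and turned to 0.34, 0.11, 0.56, 0.29 and 0.51 with DESeq2. H2-K1, at 0.13 ± 0.21 with TMM, was higher with total UMIs and with DESeq2. Relative to the median of all genes, H2-Q10 was lower by more than any other member.

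By lineage, with TMM, H2-Q10 was lower in 10 of 10 lineages, with log2 differences from -5.62 in alveolar macrophage-like to -2.48 in eosinophil-like cells. H2-D1 was also lower in 10 of 10 (-2.24 in plasma cell-like to -0.76 in nonclassical monocyte-like cells), although in CPM the nonclassical monocyte-like values did not lie below the reference of their pool. H2-T23 was lower in 9 lineages and Tapbp in 8, although their averages over the lineages turned positive with DESeq2, as given above. These by-lineage tests used TMM alone, and the share of all genes called in each lineage was not counted. Psmb8 was higher in 4 lineages, dendritic cell-like (1.23 ± 0.21), plasma cell-like (0.91 ± 0.21), classical monocyte-like (0.62 ± 0.20) and T and NK cell-like (0.55 ± 0.22). H2-K1 was higher in T and NK cell-like (1.05 ± 0.28) and nonclassical monocyte-like cells (0.86 ± 0.28), Nlrc5 in T and NK cell-like (1.38 ± 0.36) and dendritic cell-like cells (0.80 ± 0.32), and Psmb9 in dendritic cell-like cells (0.90 ± 0.17). Among pathway genes over the 10 lineages, H2-T24 (-2.38), Irf1 (-2.11) and Irf2 (-1.51) were lower and Cd1d1 (3.11), H2-M3 (3.01) and Erap1 (2.04) were higher with TMM.

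**Figure D5:**
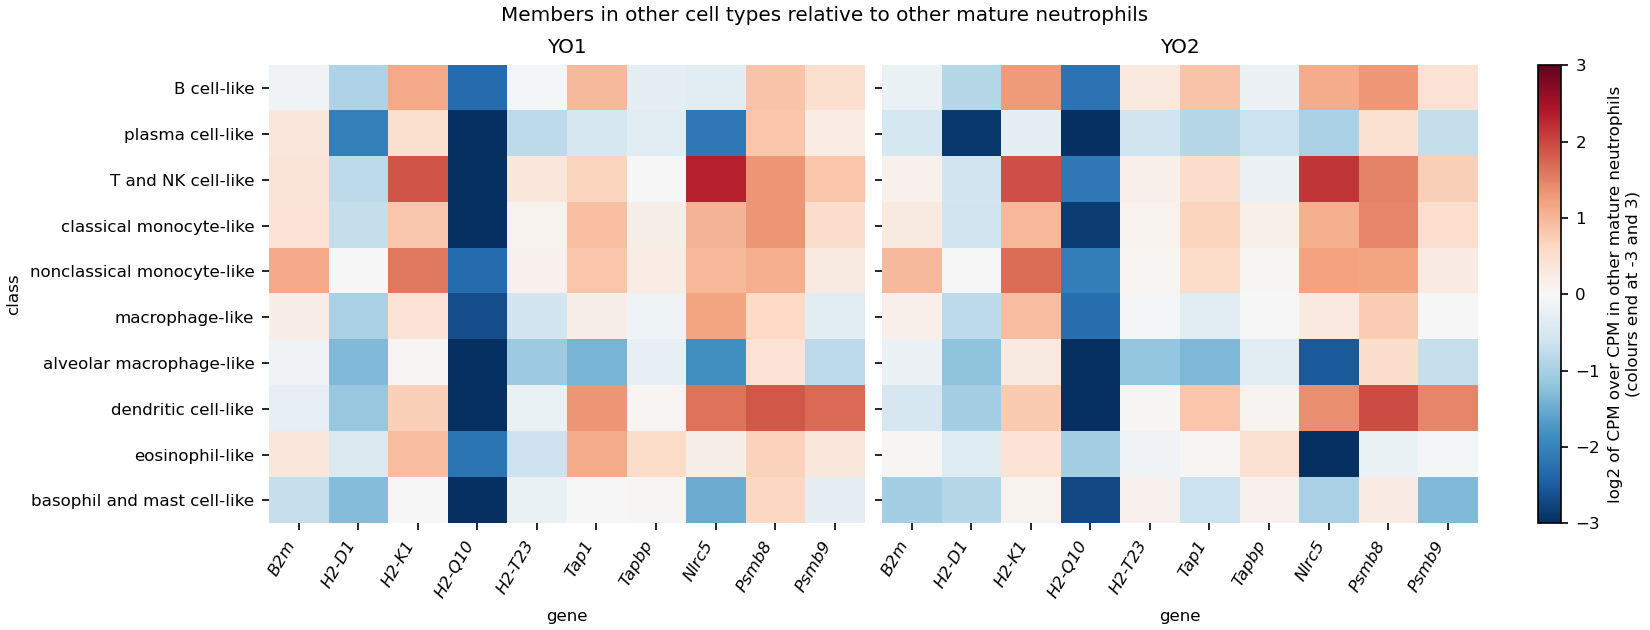
Log2 of the CPM of each member in 10 other lineages over that in other mature neutrophils (colour, which ends at -3 and 3), 1 panel per pool with genes in columns. The H2-Q10 column is blue in every lineage of both pools, and the Psmb8 column is red in all lineages of YO1.

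H2-Q10 was further described in cells of the reference class, whose CPM lay above that of all 10 other lineages in both pools. Cycling and Ltf-high neutrophils lay below the B cell-like, nonclassical monocyte-like and eosinophil-like values. An H2-Q10 UMI was seen in 73.3% of YO1 cells and 77.4% of YO2 cells with at least 2 UMIs of Scnn1a and Slc40a1 (median depth 1074 and 1377 UMIs) and in 67.9% and 72.6% of the other cells of the class (966 and 1259). After thinning to 1000 UMIs these shares were 71.2% and 68.0%, against 66.7% and 67.0%, with 1307 and 476 shallower cells left out of the first subset and 3205 and 580 out of the second. The 95% exact intervals of the thinned shares did not overlap in YO1 (69.2 to 73.1 against 64.8 to 68.5) and overlapped in YO2. Alveolar macrophage-like cells, deeper at 6676 and 8905 UMIs, had such a UMI in 13.9% and 20.9% of cells, and in 2.05% and 4.81% after thinning. CPM differed little between the subsets, at 1559 against 1509 in YO1 and 1463 against 1433 in YO2. Transcripts of hepatocytes (Alb, Apoa1, Apoa2, Ttr and Serpina1a) summed to 139 UMIs in other mature cells of YO1 and to 1 UMI in YO2, where H2-Q10 had 15397 and 18621 UMIs.

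None of 4 subsets of other mature cells split by Scnn1a and Slc40a1, Trem1 and Cd14, Stfa2l1 and Asprv1, or Egr1 moved H2-Q10 out of the range 1381 to 1568 CPM. H2-D1 stayed within 3727 to 3955 CPM and B2m within 3151 to 3444 in these subsets. Mature cells with 2 to 2.5% of UMIs from S100a8 and S100a9 (436 and 727 cells), just inside the limit, had 1193 and 925 CPM of H2-K1 and 4266 and 3938 of B2m. Those with 1.5 to 2% (388 and 752 cells), just outside it, had 1246 and 1024 CPM of H2-K1 and 4492 and 4078 of B2m. Cells left without a class had 982 and 1071 CPM of H2-Q10. They had 1202 and 1311 CPM of H2-K1 and 2.76 and 2.56 H2-D1 UMIs per H2-K1 UMI, between the activated and other mature values of the same pool.

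Patterns were compared across the 32 class and pool sums with at least 30 cells. Unlike the fit over lineages, they left out the activated sum of YO1 (13 cells) and included sinusoidal endothelial cell-like cells of YO1 (808 cells). Tap1 had the closest pattern to the mean of the other 9 members (Pearson r = 0.85 of log2 CPM) and H2-Q10 the least close (r = 0.48). These sums share 2 libraries, so the values describe the sums and carry no test. Among 5864 genes with a mean of at least 20 CPM, those closest to the members' mean were Dtx3l (r = 0.87), Gpr132 (0.86), Mef2d (0.83), Itga4 (0.82) and Socs3 (0.81).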

How the data were processed

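UMI counts per gene and cell were deposited by the authors as whole numbers for 2 transcriptome pools; the genome was mm10 per the submitters' processing notes, and for aligner, annotation and cell calling: not given in the sources used here. Tag, antibody and unassigned libraries were not used, so tissue and age were not analysed here. A cell was kept if it had 200 or more UMIs, 100 or more genes and no more than 20% mitochondrial UMIs, and doublets were not removed. Lineage cells needed at least 2 different markers of a list and a summed UMI minimum (3 for most lists, 2 for eosinophils, 5 for macrophages, 20 for plasma cells). The minima, and the hepatocyte list, were set after seeing the data. The members, lists and tests were chosen with earlier results of these data known.

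Counts were summed per class and pool, and sums of at least 30 cells in each pool entered the fit over lineages; the activated sum of YO1, with 13 cells, was kept in the fit over neutrophils. edgeR 4.0.16 (R 4.3.3; glmQLFit and glmQLFTest, TMM scaling, filterByExpr, two-sided, Benjamini-Hochberg over all genes tested) was fitted to 12 neutrophil sums with 5 residual degrees of freedom, and to 32 sums with the lineages. SE was the absolute log2 change divided by the square root of F. The pool was a block, because classes of a pool come from the same cartridge and cells. Nothing in the labels separates animals within a pool, so p-values measure only how class differences vary between the 2 pools. The estimate of that spread is shared over the classes. Classes cut from the same cells are not independent cultures. The text names the 10 members in each comparison, the listed pathway genes that passed (1 listed gene is not reported here), and the 5 genes of likest pattern (log2 of CPM plus 1). Alternatives were DESeq2 1.42.0, scaling by total UMIs, no low-count filter, no block, 500 UMIs as the minimum and removal of the 5% of cells with most UMIs. Others were thinning, no S100a8, S100a9 and Ngp limits, and each sum left out. In the fits, thinning assigned classes from cells thinned to 1000 UMIs, left out shallower cells and summed the full counts of the rest. The thinned shares of cells with an H2-Q10 UMI were counted in the thinned cells themselves. An S100a8 and S100a9 limit for cycling cells, and leaving out sums in the fit without limits, were added after seeing the data. Scripts (Python 3.11.15 with pandas 2.3.3, scipy 1.17.1 and numpy 2.4.6; figures by matplotlib 3.10.9) were tested on simulated data.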

Additional observations from a re-analysis of the deposited data

How the results depend on the processing

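Counts below are of the 10 members called at an adjusted p of 0.05, and the cause of each change was not tested. A sum left without its partner pool is assumed to vary like the other groups. Without the pool as a replicate block, members higher in interferon neutrophils went from 5 to 3, in activated neutrophils from 1 to 0, and in interferon against activated neutrophils from 1 to 0. Leaving out a sum gave 1 to 4 members higher in interferon neutrophils, 0 to 3 higher and 0 to 3 lower in activated neutrophils (the fits without limits included), 0 to 3 in interferon against activated, 4 to 7 lower in Ltf-high cells and 8 to 10 lower in cycling cells. For activated neutrophils, DESeq2 called 3 higher, total UMIs 2, and no filter or thinning 0; H2-Q10 alone (1 member) was lower with no filter, without the cells of most UMIs, with thinning and with the cycling limit; without the limits 4 were higher and 2 lower. Interferon against activated neutrophils gave 2 members with no filter, without the cells of most UMIs, with thinning and with the cycling limit, and 4 without the limits. In late immature cells total UMIs gave 2 lower and thinning 3; in Ltf-high cells DESeq2 gave 5.

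For other lineages, members higher went from 0 to 7 with DESeq2, 2 with total UMIs, 1 with the cycling limit and 1 to 2 with an other mature sum left out; members lower went from 7 to 2, 2, and 2 to 3. With DESeq2 the log2 differences of B2m, H2-T23, Tap1, Tapbp, Nlrc5 and Psmb9 turned to 0.34, 0.11, 0.56, 0.29, 0.58 and 0.51. With total UMIs those of B2m, Tap1 and Psmb9 turned to 0.049, 0.25 and 0.21. Tap1 ranged from -0.0301 to 0.12 without an other mature sum (0.12 without that of YO2), and Psmb9 from -0.025 to 0.0019 (0.0019 without that of YO1). Psmb8 in cycling cells turned to 0.049 with DESeq2 and 0.083 with thinning. Thinning moved the shares of cells with an H2-Q10 UMI to 71.2% and 66.7% in YO1 and to 68.0% and 67.0% in YO2.

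Over all genes, activated neutrophils had 281 higher and 175 lower genes, against 160 and 34 without the block, 122 higher with thinning, 105 lower with total UMIs, 318 lower with no filter, 273 lower without the cells of most UMIs, and 1342 and 1296 without the limits. Interferon against activated gave 269 and 276, against 169 higher with DESeq2, 143 higher with total UMIs, 97 and 159 without the block, 132 lower with thinning, and 1195 and 1031 without the limits. Late immature cells gave 790 and 642, against 1581 higher with thinning, 316 lower with DESeq2, 980 lower with total UMIs and 379 lower without the block. DESeq2 lowered the genes lower in Ltf-high cells from 2084 to 1171 and in cycling cells from 2531 to 1422, and for lineages gave 7149 higher and 1668 lower against 3199 and 3685; total UMIs gave 2184 lower. Genes lower in interferon neutrophils went from 0 to 3 with no filter, 1 without the cells of most UMIs or without the limits, and 4 with thinning. Depth limits the activated values of YO1, which rest on 13 cells.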
